A study of Homo sapiens with 6 samples.

Results

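E-cadherin (CDH1), P-cadherin (CDH3), EPCAM, the epithelial splicing factors ESRP1 and ESRP2, the catenins CTNNA1 and CTNND1, the polarity genes LLGL2 and CRB3, and the transcription factor SNAI1 were examined in AGS cells, an established line of gastric adenocarcinoma epithelium. These 10 genes were looked up by symbol in the gene table of the series. CDH3 has no row there and was not analysed here, which left 9 genes of 11187. The cells had received, by transient transfection, either miR-3648 mimics or a negative control (NC), and 3 libraries were available for each treatment. All libraries come from this 1 line, and miR-3648 itself is not among the values used here. No time after transfection and no dose are given in the sources used here. The labels do not say whether the 3 libraries of a treatment came from separate cultures. A p-value therefore sets a difference between treatments only against the scatter of these libraries within treatments, which can be technical scatter.

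The 9 genes are parts of the machinery that keeps epithelial cells attached, polarised and epithelial in their splicing. Classical cadherins bind their like on the neighbouring cell, and inside the cell they bind beta-catenin, which alpha-catenin (CTNNA1) links to actin, while p120-catenin (CTNND1) holds the cadherin at the membrane. During epithelial-mesenchymal transition (EMT), SNAI1 binds E-box motifs and represses CDH1 and polarity genes, and loss of ESRP1 and ESRP2 shifts exon choice in genes that include CTNND1. AGS is widely used as a line that lacks functional E-cadherin protein, so its CDH1 transcript cannot be read as protein.

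The transfected microRNA is shown first because its seed (bases 2 to 8, in capitals) sets which transcript sites it can pair with. The sequence is the RefSeq entry on GRCh38.p14, chr21:8987026-8987046, plus strand, 21 nucleotides long.

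hsa-miR-3648: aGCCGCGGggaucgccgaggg

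None of the 9 genes held a 7mer match to this seed in its longest annotated 3' UTR (GENCODE v29). Such a match, CCGCGGC, or CGCGGCA where an A follows a match to bases 2 to 7, was present in the 3' UTR of 2.11% of 10213 tested genes with an annotation. In the coding sequence, EPCAM and ESRP2 held 1 match each and the other 7 genes none, against 12.8% of tested genes with at least 1. Both coding matches lay close to the start codon, at base 41 of 942 in EPCAM and at base 44 of 2181 in ESRP2. They are printed with 11 bases on each side, the match in capitals, from the GENCODE v29 transcripts.

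EPCAM coding match: gcttctgcttgCCGCGGCgacggcgactt
ESRP2 coding match: gggccctgaccCCGCGGCcgaccccgccg

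A match describes the letters and does not show pairing. EPCAM had a positive and ESRP2 a negative difference between treatments, and neither passed the test, as given below.

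Values are FPKM, a fragment count per unit of transcript length and of mapped library size, so levels can be compared between genes. Summed over listed genes, FPKM lay between 208274 and 222947 in each library, which says nothing of depth, and the depth is unknown. NC replicate 3 stood apart, with a mean Pearson's r across tested genes of 0.967 to the other NC libraries and 0.979 to the mimic libraries. Of the epithelial markers, 8 of 9 were listed, with a summed level of 637 to 814 FPKM in NC and 728 to 749 FPKM in mimic libraries. Most of that sum was KRT8, KRT18 and KRT19, with means of 172, 223 and 280 FPKM over the 6 libraries. TJP1 and OCLN averaged 27.5 and 16.6 FPKM. KRT7, MUC1 and CLDN4 were low, at 2.13, 3.26 and 3.34 FPKM. Of the markers of other cell types, 2 of 6 fibroblast markers were listed (sums of 4.0 to 4.19 FPKM in NC and 3.88 to 4.28 FPKM in mimic libraries). Leukocytes had 3 of 6 listed (6.98 to 8.05 and 5.69 to 6.10 FPKM) and endothelium 1 of 5 (1.95 to 2.96 and 1.87 to 2.84 FPKM). Most of the leukocyte sum was LYZ, averaging 5.25 ± 0.244 FPKM with NC and 3.95 ± 0.235 FPKM with the mimics (SD, n = 3). LYZ did not pass the test between treatments given below. PTPRC, CD3E, PECAM1, VWF and DCN had no row.

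None of the 9 genes passed the test between treatments, and in both treatments EPCAM, CTNNA1, CTNND1 and ESRP1 led in level, in that order, while SNAI1 and CDH1 came last. EPCAM was the most abundant, with a mean of 192 FPKM over the 6 libraries. CTNNA1, CTNND1 and ESRP1 followed at 42.4, 36.8 and 29.5 FPKM. ESRP2, CRB3 and LLGL2 lay at 12.8, 12.3 and 10.3 FPKM, and SNAI1 and CDH1 lay at 3.75 and 3.28 FPKM. The ranges over libraries separated EPCAM from CTNNA1, ESRP1 from ESRP2, and LLGL2 from SNAI1. The other neighbours in this order overlapped in range, although CRB3 was above LLGL2 within each of the 6 libraries.

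**Figure D1:**
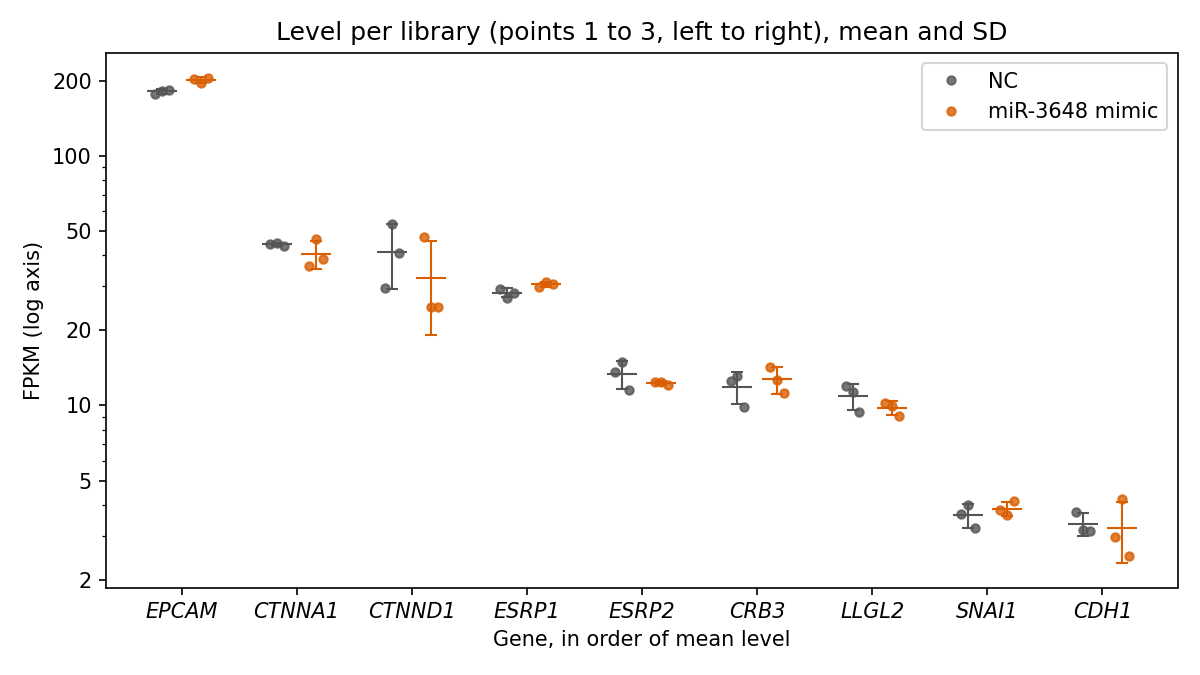
FPKM of each gene (log axis) in the 3 NC and 3 mimic libraries, with points for replicates 1 to 3 from left to right, a bar for the mean and whiskers of 1 SD. EPCAM at 177 to 206 FPKM stands far above CDH1 and SNAI1 at 2.48 to 4.20 FPKM, and CTNND1 has the widest scatter.

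Groups were compared with limma on log2(FPKM + 1), with Benjamini-Hochberg adjustment over 10286 tested genes. All 9 genes were tested, and 0 passed the adjusted threshold of 0.05, where 0.408% of all tested genes passed. At an unadjusted p under 0.05 there was 1 of the 9, EPCAM, where 14.6% of all tested genes had such a p. Of the 9 genes, 4 had a positive and 5 a negative difference (mimic minus NC), with a median of -0.06 log2 units, beside -0.0046 over all tested genes. Groups did not overlap for 2 of the 9, EPCAM and ESRP1, both higher in mimic libraries. Over all tested genes, 22.2% had such groups, 8.68% with mimic libraries higher and 13.5% with mimic libraries lower.

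CDH1, which encodes the main cadherin of epithelial adherens junctions, was at 3.75, 3.15 and 3.15 FPKM in NC replicates 1 to 3 and at 2.96, 4.20 and 2.48 FPKM in mimic replicates 1 to 3. The highest and the lowest of the 6 values both came from mimic libraries, which spanned the whole NC range. The difference was -0.06 log2 units (SE 0.16, 95% interval -0.43 to 0.30, limma adjusted p = 0.86, n = 3 each), so a change in either direction of the size of that interval cannot be told from none. In bulk RNA, a change in every cell and a change in some of the cells cannot be told apart. CDH1 (ENSG00000039068) lies on chromosome 16 from 68771128 to 68869451 on GRCh37, on the plus strand, and no other listed gene overlaps it. Its mean level exceeded that of 29.4% of listed genes.

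CDH1 was not the leading cadherin of these cells. CDH17, the liver-intestine cadherin that works without catenins, was at 30.9 to 56.5 times the CDH1 level in single libraries, with a median ratio of 38.0. The cytoplasmic partners were also far more abundant than CDH1: CTNNA1 exceeded it 11- to 15.5-fold and beta-catenin (CTNNB1) 11.9- to 20.9-fold per library.

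EPCAM, a homophilic adhesion protein of simple epithelia that also signals after cleavage, measured 177, 183 and 185 FPKM with NC against 204, 196 and 206 FPKM with the mimics. Every mimic library was above every NC library, and the gap between the groups was wider than the spread within NC. The difference was 0.15 log2 units (SE 0.05, 95% interval 0.03 to 0.28), with an unadjusted p of 0.025 and a limma adjusted p of 0.28 (n = 3 each). It did not pass the test, although its spread within groups was among the lowest of all tested genes, at percentile 1.71. EPCAM (ENSG00000119888) lies on chromosome 2 from 47572297 to 47614740 on GRCh37, on the plus strand, with no overlapping listed gene. Its level exceeded that of 99.2% of listed genes.

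Among the catenins, CTNNA1 was steady in NC, at 44.6, 44.8 and 43.6 FPKM, and more scattered in mimic libraries, at 36.3, 46.3 and 38.6 FPKM. Mimic replicate 2 was above all NC libraries and the other 2 mimic libraries were below them. The difference was -0.14 log2 units (SE 0.10, 95% interval -0.37 to 0.09, limma adjusted p = 0.53, n = 3 each), and it was -0.06 without mimic replicate 1 and -0.24 without mimic replicate 2. CTNNA1 (ENSG00000044115) lies on chromosome 5 from 137946656 to 138270723 on GRCh37.

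CTNND1, the p120-catenin gene, varied more within groups than any other of the 9. It was at 29.5, 53.6 and 40.7 FPKM in NC replicates 1 to 3 and at 47.5, 24.8 and 24.8 FPKM in mimic replicates 1 to 3. NC replicate 2 and mimic replicate 1 were high, mimic replicates 2 and 3 were low, and the ends of the range were 2.16-fold apart. The difference of -0.37 log2 units had an SE of 0.30 and a 95% interval of -1.08 to 0.34 (limma adjusted p = 0.58, n = 3 each). Without mimic replicate 1 it was -0.67 log2 units, and without NC replicate 2 it was -0.17 (limma adjusted p = 0.45 and 0.86). Its spread within groups lay at percentile 97.0 of all tested genes. CTNND1 (ENSG00000198561) lies on chromosome 11 from 57520715 to 57587018 on GRCh37. In GENCODE v29 a read-through gene, TMX2-CTNND1, overlaps it on the same strand. That gene has no row in the table and reads could be shared with it, so the level of CTNND1 is uncertain. TMX2, at the other end of the read-through, ran from 29.2 to 41.5 FPKM, with its lowest value in mimic replicate 1 and the next lowest in NC replicate 2, the libraries where CTNND1 was highest. Whether reads moved between gene models was not tested.

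**Figure D2:**
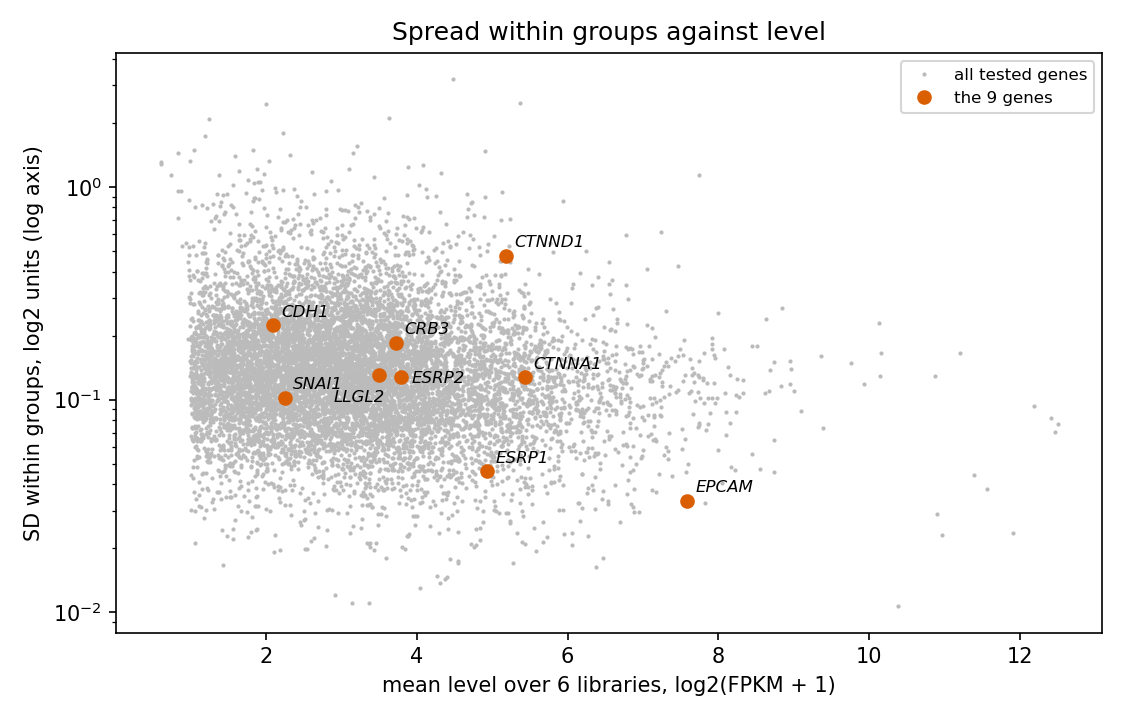
SD within groups (log2 units, log axis) against mean log2(FPKM + 1) over 6 libraries, for all tested genes in grey and the 9 genes in orange. CTNND1 lies near the top of the cloud at percentile 97.0, and EPCAM and ESRP1 near the bottom at percentiles 1.71 and 4.33.

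The splicing factors ESRP1 and ESRP2 bind GU-rich sequence beside exons and favour epithelial isoforms. ESRP1 measured 29.4, 27.1 and 28.4 FPKM with NC against 30.0, 31.3 and 30.6 FPKM with the mimics. The mimic values were all above the NC values, by a narrow margin between NC replicate 1 and mimic replicate 1. The difference of 0.11 log2 units did not pass (SE 0.07, 95% interval -0.04 to 0.27, limma adjusted p = 0.46, n = 3 each). ESRP1 (ENSG00000104413) lies on chromosome 8 from 95653302 to 95719694 on GRCh37, on the plus strand.

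ESRP2 measured 13.7, 15.0 and 11.5 FPKM with NC against 12.4, 12.4 and 12.0 FPKM with the mimics. The mimic libraries were close together and lay between NC replicate 3 and NC replicate 1. The difference of -0.11 log2 units did not pass (SE 0.10, 95% interval -0.35 to 0.14, limma adjusted p = 0.64, n = 3 each), and it was -0.03 without NC replicate 2 and -0.20 without NC replicate 3. ESRP2 (ENSG00000103067) lies on chromosome 16 from 68263014 to 68272005 on GRCh37, on the minus strand, and shares 149 bases with NFATC3 on the other strand. Whether the quantification used strand is not stated in any source used here.

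ESRP1 was the more abundant paralog in every library. The ESRP1 to ESRP2 ratio was 2.15, 1.81 and 2.47 with NC against 2.42, 2.52 and 2.55 with the mimics. NC replicate 3 fell inside the mimic range, so the groups overlapped. The mean log2 ratio was 0.23 higher in mimic libraries, with an exact two-sided permutation p of 0.2 over 20 assignments, where the smallest possible p is 0.1. Leaving out 1 library at a time gave 0.11 to 0.34, the lowest without NC replicate 2 and the highest without NC replicate 3. Gene-level values hold no exon choice, so the splicing of ESRP targets was not analysed here.

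LLGL2, a basolateral polarity protein of the Scribble group, measured 12.0, 11.3 and 9.40 FPKM with NC against 10.3, 9.94 and 9.08 FPKM with the mimics. Only mimic replicate 3 lay below NC replicate 3, and the groups overlapped. The difference was -0.14 log2 units (SE 0.11, 95% interval -0.39 to 0.11, limma adjusted p = 0.55, n = 3 each). It was -0.07 without NC replicate 1, -0.09 without mimic replicate 3 and -0.23 without NC replicate 3. LLGL2 (ENSG00000073350) lies on chromosome 17 from 73521161 to 73571289 on GRCh37. Its paralog LLGL1 was less abundant, and LLGL2 exceeded it 2.14- to 2.70-fold per library.

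CRB3, the small transmembrane Crumbs protein of the apical membrane in epithelia, measured 12.5, 13.1 and 9.86 FPKM with NC against 14.3, 12.6 and 11.2 FPKM with the mimics. The highest value was in mimic replicate 1 and the lowest in NC replicate 3, and the groups overlapped. The difference was 0.10 log2 units (SE 0.13, 95% interval -0.21 to 0.41, limma adjusted p = 0.73, n = 3 each), and it was -0.02 without NC replicate 3, 0.02 without mimic replicate 1, 0.17 without NC replicate 2 and 0.18 without mimic replicate 3. CRB3 (ENSG00000130545) lies on chromosome 19 from 6463788 to 6467232 on GRCh37, on the plus strand. It shares 1427 bases with SLC25A23 on the other strand, so reads of the 2 genes cannot be told apart if strand was not used.

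SNAI1, the zinc-finger repressor of EMT, was low, measuring 3.68, 3.99 and 3.22 FPKM with NC against 3.79, 3.64 and 4.15 FPKM with the mimics. The 2 groups overlapped, and NC replicate 3 was the lowest. The difference was 0.07 log2 units (SE 0.10, 95% interval -0.15 to 0.30, limma adjusted p = 0.73, n = 3 each). It was 0.0072 without NC replicate 3, 0.03 without mimic replicate 3 and 0.13 without NC replicate 2. SNAI1 (ENSG00000124216) lies on chromosome 20 from 48599536 to 48605423 on GRCh37. SNAI1 was above its known target CDH1 in 4 of the 6 libraries, which does not separate their levels. SNAI2, TWIST1, TWIST2, ZEB1 and ZEB2 had no row and were not analysed here. SNAI3, a relative of SNAI1, was listed below the filter, averaging 0.955 ± 0.330 FPKM with NC and 0.862 ± 0.171 FPKM with the mimics (SD, n = 3).

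Promoter windows of 300 bases, from 250 before to 50 after an annotated start, were available for CRB3 and CTNNA1 from RefSeq on GRCh38.p14. They were searched for the SNAI1-type E-box CACCTG on both strands, which reads CACCTG or CAGGTG on the printed strand, and these words cannot overlap each other. The CRB3 window held 5 E-boxes and none of the 4 CTNNA1 windows held any. At least 1 E-box was present in 18.5% of 12629 windows of listed genes, and 5 or more in 0.0158%, the windows of 2 genes of which CRB3 is one. The CRB3 window is printed because SNAI1 is known to repress CRB3, with the E-boxes in capitals, at chr19:6464021-6464320 on the plus strand.

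CRB3 promoter: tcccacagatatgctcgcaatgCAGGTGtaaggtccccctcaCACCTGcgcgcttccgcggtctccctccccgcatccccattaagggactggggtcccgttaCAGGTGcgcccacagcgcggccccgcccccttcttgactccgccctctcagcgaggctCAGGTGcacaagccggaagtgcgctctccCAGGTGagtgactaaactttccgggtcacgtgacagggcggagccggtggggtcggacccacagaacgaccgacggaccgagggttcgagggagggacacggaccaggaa

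All 5 E-boxes lay upstream of the annotated start, beginning 228, 208, 147, 89 and 60 bases before it. The presence of these words is a description of the sequence, and binding was not measured. The levels beside it are those given above, where neither SNAI1 nor CRB3 passed the test between treatments.

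The differences of the 9 genes were set beside GC content, because over 10213 tested genes the difference ran against transcript GC content (Spearman's rho -0.50, across genes that share the same 6 libraries). The 4 genes richest in GC were LLGL2, CRB3, ESRP2 and SNAI1, at 64.0%, 60.9%, 59.6% and 58.2%, and the other 5 lay between 42.8% and 48.6%. In NC replicate 3 those 4 genes were below the mean of NC replicates 1 and 2, with differences of -0.28, -0.35, -0.29 and -0.20 log2 units in that order, where the median over all tested genes was -0.03. The other 5 genes lay between -0.10 and 0.04 there. With a correction of each library for GC content, the difference moved from -0.14 to 0.01 for LLGL2, from -0.11 to -0.0013 for ESRP2, from 0.10 to 0.22 for CRB3 and from 0.07 to 0.17 for SNAI1. ESRP1, the poorest in GC at 42.8%, moved from 0.11 to 0.04. EPCAM was at 0.16 and CTNND1 at -0.37 with the correction, beside 0.15 and -0.37 without it. None of the 9 passed with the correction, the smallest limma adjusted p being 0.14 for EPCAM.

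**Figure D3:**
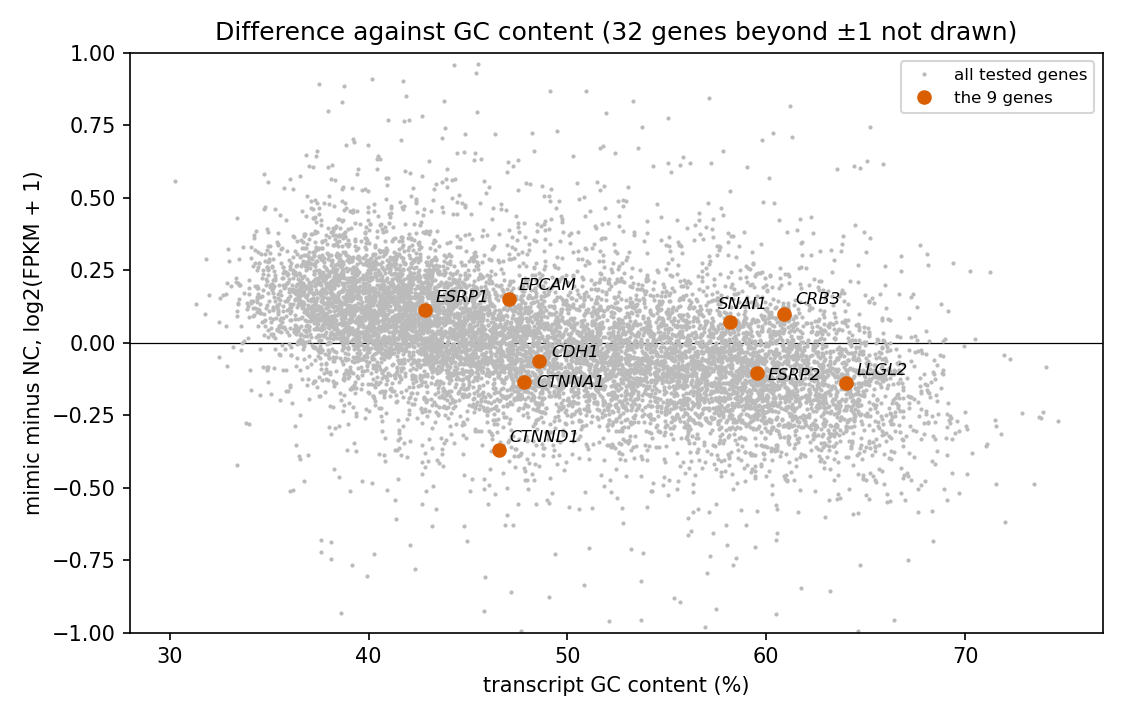
Difference between groups (mimic minus NC, log2(FPKM + 1)) against transcript GC content in percent, for all tested genes in grey and the 9 genes in orange, with 32 genes beyond 1 log2 unit not drawn. The cloud slopes down with GC content, and CRB3 and SNAI1 sit in its upper part while CTNND1 sits near its lower edge.

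Without NC replicate 3, 14.8% of tested genes passed over the whole table, and still none of the 9 did. The smallest limma adjusted p values there were 0.062 for EPCAM, 0.078 for ESRP2 and 0.082 for LLGL2, with differences of 0.16, -0.20 and -0.23 log2 units. With GC correction added, an alternative chosen after seeing the data, these were 0.17, -0.03 and -0.0047 log2 units.

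**Figure D4:**
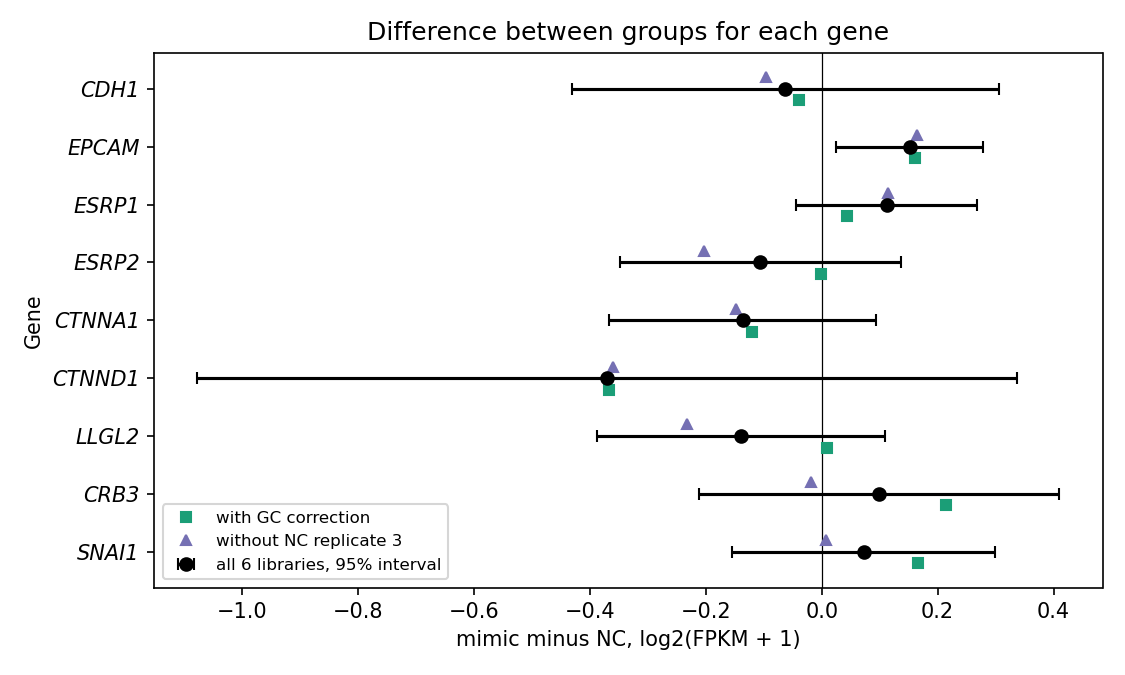
Difference between groups for each of the 9 genes (mimic minus NC, log2(FPKM + 1)), as black points with 95% intervals from limma over all 6 libraries, and as points without intervals after GC correction (green) and without NC replicate 3 (purple). Among the 9 black intervals, that of EPCAM, 0.03 to 0.28, is the one that leaves out 0 before adjustment, and LLGL2 and ESRP2 move towards 0 with the correction.

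Partners and regulators of the 9 genes were taken from lists, and no gene of any list passed the adjusted limma test. Over all tested genes 5247 of 10286 differences were negative and 14.6% had an unadjusted p under 0.05, which the counts of each list are to be read against. In the cadherin-catenin junction list, 17 genes were tested, 1 had an unadjusted p under 0.05, and 14 of 17 differences were negative (median -0.05 log2 units). CTNNB1, which binds the tail of E-cadherin directly, averaged 53.8 ± 2.80 FPKM with NC and 53.0 ± 3.76 FPKM with the mimics (SD, n = 3). PKP4, a relative of CTNND1, averaged 7.91 ± 0.539 and 6.69 ± 0.325 FPKM. JUP, plakoglobin, averaged 95.4 ± 15.0 and 82.4 ± 2.05 FPKM, with a limma adjusted p of 0.46 over 6 libraries, 0.027 without NC replicate 3 and 0.15 with GC correction added to it. With GC correction alone its difference moved from -0.20 to -0.07 log2 units. Of 3 other cadherins tested, 1 had an unadjusted p under 0.05, CDH24, while CDH17 averaged 118 ± 18 FPKM with NC and 140 ± 2.85 FPKM with the mimics (limma adjusted p = 0.34, 0.033 without NC replicate 3 and 0.096 with GC correction added to it).

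Genes of E-cadherin turnover and cleavage had a median difference of 0.02 log2 units, with 12 of 20 positive and 1 at an unadjusted p under 0.05. That gene was MET, the receptor of hepatocyte growth factor, averaging 25.9 ± 1.95 FPKM with NC and 31.9 ± 1.22 FPKM with the mimics (SD, n = 3, limma adjusted p = 0.21, 0.035 without NC replicate 3 and 0.13 with GC correction added to it). Among EPCAM partners and processing genes the median was -0.01, with 6 of 13 positive and 2 at an unadjusted p under 0.05. FHL2, an adaptor for the cleaved EPCAM tail, averaged 6.77 ± 0.435 FPKM with NC and 10.2 ± 0.692 FPKM with the mimics (0.53 log2 units, limma adjusted p = 0.084, 0.029 with GC correction, 0.028 without NC replicate 3 and 0.057 with both). The limma adjusted p of FHL2 was larger with the replicate block, at 0.20, and at 0.14 with the block and GC correction. It lay between 0.14 and 0.37 when any library other than NC replicate 3 was left out. The other gene at an unadjusted p under 0.05 was CLDN1, a tight junction claudin, averaging 3.89 ± 0.138 FPKM with NC and 3.25 ± 0.0671 FPKM with the mimics (-0.20 log2 units, limma adjusted p = 0.30). CD9, a tetraspanin, averaged 84.6 ± 3.24 and 76.3 ± 2.89 FPKM (-0.15 log2 units, limma adjusted p = 0.35), and for both genes every mimic library was below every NC library.

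Apicobasal polarity genes had a median of -0.05, with 15 of 22 negative and 3 at an unadjusted p under 0.05, a share near that of all tested genes. These were PRKCZ, the atypical kinase that phosphorylates LLGL proteins, averaging 4.60 ± 0.502 FPKM with NC and 3.58 ± 0.177 FPKM with the mimics, with STK11 and LLGL1 (SD, n = 3, limma adjusted p = 0.27, 0.29 and 0.33). PRKCZ and LLGL1 passed without NC replicate 3 (limma adjusted p = 0.034 and 0.039) and did not when GC correction was added to it (limma adjusted p = 0.21 and 0.26). With GC correction alone their differences moved from -0.29 to -0.18 and from -0.27 to -0.15 log2 units. Among splicing factors that work with or against ESRP proteins, 8 of 15 were positive (median 0.05) and none had an unadjusted p under 0.05. RBM47, another epithelial splicing factor, averaged 17.4 ± 0.279 and 15.7 ± 0.542 FPKM.

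For SNAI1, the list of EMT factors and SNAI1 regulators had a median of 0.0011, with 8 of 15 positive and 1 at an unadjusted p under 0.05. It was RCOR1, the CoREST scaffold, averaging 18.7 ± 0.925 FPKM with NC and 15.7 ± 0.807 FPKM with the mimics (SD, n = 3, limma adjusted p = 0.25). KDM1A, the demethylase that SNAI1 recruits with CoREST, averaged 38.8 ± 1.99 and 35.0 ± 0.243 FPKM (limma adjusted p = 0.37). HDAC1, of the same list, differed in the other direction, averaging 58.3 ± 2.05 and 62.9 ± 1.19 FPKM (limma adjusted p = 0.44). Mesenchymal markers had 6 tested genes, 5 of them positive (median 0.14) and 2 at an unadjusted p under 0.05, among them COL6A1, a collagen VI chain, whose difference was -0.29 log2 units (limma adjusted p = 0.29). COL6A1 passed without NC replicate 3 (limma adjusted p = 0.041) and did not when GC correction was added to it (limma adjusted p = 0.31), and its difference was -0.14 with GC correction alone. Vimentin (VIM) was listed below the filter, averaging 0.603 ± 0.113 FPKM with NC and 0.747 ± 0.149 FPKM with the mimics, and CDH2 and FN1 had no row.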

How the data were processed

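FPKM per gene were deposited by the authors in 1 table, with a column for each of the 3 NC and 3 mimic libraries. Per the submitters' processing notes, StringTie 1.3.3 and cutadapt were used with GRCh37. The sources used here do not give the aligner, annotation release or strand setting. Per the labels' protocols, libraries were made from total RNA with a strand-specific kit.

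From these values, log2(FPKM + 1) was computed without further scaling, and genes with a mean of at least 1 FPKM were tested with limma 3.58.1 in R 4.3.3 (intensity trend, two-sided, Benjamini-Hochberg adjustment over 10286 genes, threshold 0.05). The fold change of low genes is understated on this scale. The fit was tested on simulated data with independent noise for each gene and library. That noise held no outlying library and no trend with GC content, so the test says nothing of either. Transcript GC content (99.3% of tested genes), UTRs and coding sequence came from GENCODE v29 on GRCh38, matched by Ensembl identifier, and gave no coordinates. Coordinates of genes are those of the deposited table. GC was corrected by a lowess curve of each library's log2 deviation on GC. Promoter windows of the genes CDH1, EPCAM, ESRP1, ESRP2, CTNND1, LLGL2 and SNAI1 were not used here.

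The members and lists were chosen with earlier results of these data known. Apart from the 9 genes, the naming rule took up to 3 genes of each list with the smallest p, of which those that bear on a member are given, with paralogs and direct partners chosen after their values were seen. Alternatives were other pseudocounts, filters, scalings, prior settings, a replicate block, GC correction and leaving out each library. Values of some list members are not reported here.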

Additional observations from a re-analysis of the deposited data

How the results depend on the processing

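None of the 9 genes passed the limma threshold under any of the 18 alternatives. Of 160 values of the 9 genes under alternatives, 6 changed sign. Leaving out 1 library moved CDH1 between -0.22 and 0.065 and CRB3 between -0.018 and 0.18 (at their lowest without mimic replicate 2 and NC replicate 3), with CDH1 above 0 without NC replicate 1 and without mimic replicate 3. LLGL2 was at 0.0092 with GC correction, with or without the replicate block, and ESRP1 at -0.0096 with GC correction and without NC replicate 3 together, an alternative chosen after seeing the data. Over all tested genes, 42 passed. The count was 101 with GC correction, 118 with GC correction and without NC replicate 3, 11 with the replicate block alone and 11 with the replicate block and GC correction, and it ran from 8 to 1527 when 1 library was left out, the highest without NC replicate 3. The causes were not tested. Samples of the same number did not deviate together (r of 0.04, -0.04 and 0.07), so no pairing by number was seen. A weak shared effect could go unseen in such a check, and the labels state no pairing. The replicate block left the count of the 9 genes called at 0. Of the other genes the naming rule took, 12 values changed sign. CDHR5 was at 0.14 with GC correction, with or without the replicate block, at 0.21 with GC correction and without NC replicate 3, and between -0.077 and 0.030 when 1 library was left out. ESAM was at 0.034 with GC correction, with or without the block, at 0.10 with it and without NC replicate 3, and between -0.16 and 0.048 when 1 library was left out. CD68 lay between -0.29 and 0.019 when 1 library was left out. A further 13 values of these genes passed the threshold under an alternative and not over all 6 libraries, 11 of them without NC replicate 3 and 2 with GC correction (FHL2 and ADAM15). CDH1 and SNAI1 had no value with a filter of 5 FPKM, and the planned CDH1 to CDH3 ratio was not run. Depth is unknown, so counting error at the level of CDH1 and SNAI1 could not be given.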

Other observations

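Some junction and polarity genes were, like CTNND1, highest among mimic libraries in replicate 1. They were chosen after their values were seen and are given without a test. VCL, vinculin, which binds alpha-catenin under tension, was at 28.7, 18.5 and 19.2 FPKM in mimic replicates 1 to 3. In NC replicates 1 to 3 it was at 24.8, 24.5 and 21.7 FPKM. PRKCI, the atypical kinase of the apical polarity complex, was at 22.4, 12.4 and 12.9 FPKM in mimic replicates 1 to 3. Its NC replicates 1 to 3 were at 20.2, 16.7 and 15.2 FPKM. Within NC, VCL and PRKCI did not follow CTNND1, being highest in replicate 1, where CTNND1 was lowest. LIMA1, an actin-binding partner of alpha-catenin, did not follow VCL and PRKCI. It was at 9.35, 10.6 and 19.9 FPKM in mimic replicates 1 to 3 and 17.6, 6.35 and 21.9 FPKM in NC replicates 1 to 3. CLDN4, a claudin used here as an epithelial marker, ran from 0.841 to 8.55 FPKM within NC alone.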
